A study of Rattus norvegicus with 8 samples.

Results

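The genes described here encode the constitutive proteasome and the proteins that assemble, activate or inhibit it, measured in whole testis RNA of adult Sprague-Dawley rats on one-colour oligonucleotide arrays. They were chosen by symbol: probe sets that the array's annotation gives exactly 1 gene symbol beginning with Psma, Psmb, Psmc, Psmd, Psme, Psmf or Psmg, without Psmb8, Psmb9 and Psmb10, the catalytic subunits of the immunoproteasome. A deposited signal of 50 or above was also required, on 2 arrays or more. Of 57 probe sets with such a symbol 55 met this minimum, and they stand for 43 genes among 31042 non-control probe sets. The rule used no difference between groups.

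The 8 arrays fall into 3 groups. In 3 arrays the testes came from rats given a single dose of Adjudin of 50 mg/kg body weight by gavage and killed 4 d later, in 2 arrays the rats had received that dose 8 h earlier, and 3 arrays held testes of untreated rats. Adjudin is a compound known to release developing germ cells from Sertoli cells, the somatic cells of the seminiferous tubule that hold them. No vehicle-treated group is named, and nothing in the labels ties each array to an animal of its own. The p-values therefore describe the spread among these arrays, part of which could be technical.

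The proteasome is the protease that degrades proteins tagged with ubiquitin. Its barrel-shaped core, the 20S particle, has outer rings of alpha subunits, which gate the entry, and inner rings of beta subunits, some of which cut the substrate. The 19S cap binds ubiquitin chains, removes them and unfolds the substrate with a ring of ATPases, while other caps (PA28, PA200) open the core without using ATP. In the testis the complex takes part in the turnover of proteins while spermatids are remodelled, and in mouse PA200 has been linked to the degradation of acetylated histones there.

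By role the 43 genes comprise 7 of the alpha ring (7 probe sets), 6 of the beta ring (7), 6 ATPases of the 19S base (8) and 11 other 19S subunits (16). There are 3 chaperones of 19S assembly (4 probe sets), 3 activator genes (6), 1 inhibitor (1) and 4 chaperones of 20S assembly (4). Psmc3ip, a cofactor of meiotic recombination, and Psme3ip1, a protein that binds an activator, carry such a symbol without being subunits (2 probe sets). Psmb6 and Psme3 had probe sets with several symbols only, and they were not analysed here, nor were Psma8 and Psmb11. At the edge of the signal rule, the probe sets just inside were 1385532_x_at of Psmb5, with a second highest deposited signal of 50.9, and 1397686_at of Psmd9, with 58.6. Those outside were 1385531_at of Psmb5, with 43.5, and 1381794_at of Psmc4, with 5.8. All 55 were among the 19785 probe sets tested.

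Values below are signals scaled so that every array has a trimmed mean of 500, and differences are on the scale of log2(signal + 32), which understates the change of dim probe sets. A difference is called where limma, fitted over all tested probe sets and all 8 arrays, gave a Benjamini-Hochberg adjusted p below 0.05. Hybridisation took place in 3 runs, of which run 2 lacked an 8 h array and the other runs had 1 array per group. On each array 51.6% to 59% of the non-control probe sets had a scaled signal of 100 or more, arrays of 1 group correlated at 0.954 to 0.978, and the arrays of run 3 had the lowest medians (108 to 122, against 138 to 144 on the others). The number of arrays limits the precision.

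At 4 d 3 of the 55 probe sets (5.45%) were called in limma with Benjamini-Hochberg adjustment, against 9.89% of all tested probe sets. Psme1 and Psme2, which encode the alpha and beta chains of the PA28 activator, were higher than in controls, and Psmf1, which encodes PI31, a protein that inhibits the 20S core in vitro, was lower. The 2 higher members are 3.64% of the 55, where 6.16% of all tested probe sets were higher, and the 1 lower member is 1.82%, where 3.73% of all were lower. Both shares lie below those over all probe sets, a difference that was not tested. With the hybridisation run added to the fit as a block, 23.6% of the 55 were higher, above the 13.3% of all. The lower share was then 5.45%, below the 9.19% of all. The median log2 change of the 55 was 0.08, against 0.04 over all probe sets tested. Without the block none of the 38 probe sets for the subunits of the 20S and 19S particles was called. With it 10 of the 38 were higher (26.3%) and 1 was lower (2.63%).

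The windows from 250 bases before to 50 bases after the annotated start of the 3 called genes, from RefSeq on the build GRCr8, are shown because these genes carry the calls. The window of Psme1 lies at chr15:33038721-33039020 on the plus strand and that of Psme2 at chr15:33052702-33053001 on the minus strand, and Emc9 is annotated between these genes. That of Psmf1 lies at chr3:160720866-160721165 on the minus strand. Each window is written 5′ to 3′ along the gene, with motif matches in capitals.
Psme1: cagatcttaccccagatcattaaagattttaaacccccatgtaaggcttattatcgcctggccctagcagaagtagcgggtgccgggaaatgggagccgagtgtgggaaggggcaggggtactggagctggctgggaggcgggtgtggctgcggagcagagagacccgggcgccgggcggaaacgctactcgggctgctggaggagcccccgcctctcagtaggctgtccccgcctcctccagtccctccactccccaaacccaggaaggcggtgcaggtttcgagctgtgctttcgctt
Psme2: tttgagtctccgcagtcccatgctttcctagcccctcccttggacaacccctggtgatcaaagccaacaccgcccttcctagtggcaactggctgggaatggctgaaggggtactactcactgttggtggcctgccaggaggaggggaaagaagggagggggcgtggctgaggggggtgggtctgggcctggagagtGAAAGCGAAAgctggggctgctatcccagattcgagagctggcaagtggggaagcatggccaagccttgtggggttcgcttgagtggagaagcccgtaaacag
Psmf1: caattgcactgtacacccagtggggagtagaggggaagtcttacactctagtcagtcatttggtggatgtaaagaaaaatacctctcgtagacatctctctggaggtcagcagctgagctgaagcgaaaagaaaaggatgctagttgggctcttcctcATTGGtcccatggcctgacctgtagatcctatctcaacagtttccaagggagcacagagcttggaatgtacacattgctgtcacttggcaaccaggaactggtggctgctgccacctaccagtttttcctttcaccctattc
The capitals mark the core of an interferon-stimulated response element, GAAA, any 2 bases and GAAA again, beginning 53 bases before the start of Psme2, and a CCAAT box, which reads ATTGG on the shown strand of Psmf1, beginning 92 bases before its start. No searched motif was found in the window of Psme1.

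Both strands of the windows were searched for 5 motifs, of which the last 2 named here were added after the values had been seen. A window was given for 39 of the 43 genes, and it was not used here for Psma7, Psmd6, Psmd12 and Psmd14. The antioxidant response element TGACNNNGC was in 7 of the 39 windows (17.9%) and in 12.1% of 33469 promoter windows of the same length. The 7 belong to Psma3, Psmb2, Psmb5, Psmd1, Psmd3, Psmd9 and Psme4. None of them was called at 4 d against control in the fit without a block. With the run as a block, only Psmb2 of these was called, as higher (log2 0.36, limma adjusted p 0.0262). The AP-1-like element TGAGTCA was in 1 window (2.56%), that of Psmc6, against 4.63% of all, and the CCAAT box, CCAAT, in 20 (51.3%), against 37.5%. The interferon-stimulated core was in 5 windows (12.8%), those of Psma4, Psmb3, Psmd7, Psme2 and Psmg4, against 3.92% of all. The gamma-activated site TTCNNNGAA was in 3 (7.69%), those of Psmc6, Psmd3 and Psmd7, against 8.87%. In Psmb2 a CCAAT box and an antioxidant response element share a base. A match is a description of the window.

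The activator genes held the largest rises among the 55. The main probe set of Psme1, 1367663_at, had signals of 1793, 1458 and 2341 at 4 d, 851 and 689 at 8 h, and 815, 804 and 938 in controls. Every array at 4 d lay above every other array, and the 8 h and control arrays overlapped. The means were 1864 ± 446 (SD, n = 3) at 4 d, 770 ± 115 (n = 2) at 8 h and 852 ± 74.1 (n = 3) in controls. Against control the change at 4 d was a log2 of 1.08 (SE 0.18, 95% interval 0.67 to 1.48), a 2.11-fold rise with a limma adjusted p of 0.00545. Within the runs it was 1.11, 0.83 and 1.29.

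Psme2, the partner chain of the same cap, had signals of 1004, 1014 and 1419 at 4 d, 461 and 646 at 8 h, and 545, 608 and 550 in controls (1367710_at). Here too the arrays at 4 d stood above all others without overlap. The change at 4 d against control was a log2 of 0.96 (SE 0.18, 95% interval 0.55 to 1.36), a 1.94-fold rise with a limma adjusted p of 0.00951. The within-run values were 0.84, 0.71 and 1.32. When the run entered the fit as a block, the adjusted p was 0.000457 for Psme1 and 0.000757 for Psme2. Both rises passed under each of the 17 alternatives tried, with log2 changes of 0.90 to 1.24 for Psme1 and 0.78 to 1.04 for Psme2.

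A second, dim probe set of Psme1, 1394006_at, did not follow the first. Its signals were 91.0, 86.2 and 52.6 at 4 d, 153.9 and 13.0 at 8 h, and 151.3, 104.6 and 67.6 in controls. These groups overlap, and the log2 change at 4 d was -0.34 (SE 0.49) with a limma adjusted p of 0.755. Its arrays at 4 d did not reach a scaled signal of 100.

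Psme4, which encodes PA200, the activator studied in spermatids, was not called by any of its 3 probe sets. The brightest, 1387345_at, had signals of 6772, 6416 and 5601 at 4 d, 7459 and 6889 at 8 h, and 7274, 7008 and 5746 in controls. Its arrays at 4 d overlapped the controls but lay below both at 8 h. The log2 change at 4 d against control was -0.09 (SE 0.13, limma adjusted p 0.769). The other probe sets of Psme4 gave -0.16 and 0.25.

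Psmf1 had the largest fall. Its signals were 5269, 5899 and 7396 at 4 d, 8762 and 10483 at 8 h, and 9605, 9644 and 10500 in controls (1389387_at). The highest array at 4 d lay below the lowest array of the other groups. The means were 6188 ± 1092 at 4 d (SD, n = 3), 9623 ± 1217 at 8 h (n = 2) and 9916 ± 506 in controls (n = 3). The log2 change at 4 d against control was -0.69 (SE 0.15, 95% interval -1.02 to -0.37), so Psmf1 was 1.61-fold lower, with a limma adjusted p of 0.0159 (0.000144 when the run was a block). Within the runs the change was -0.86, -0.71 and -0.50. The call depended on single arrays: without 4 d 1 the log2 change was -0.58 with an adjusted p of 0.0778, and without 4 d 2 it was -0.66 with an adjusted p of 0.0609.

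**Figure D1:**
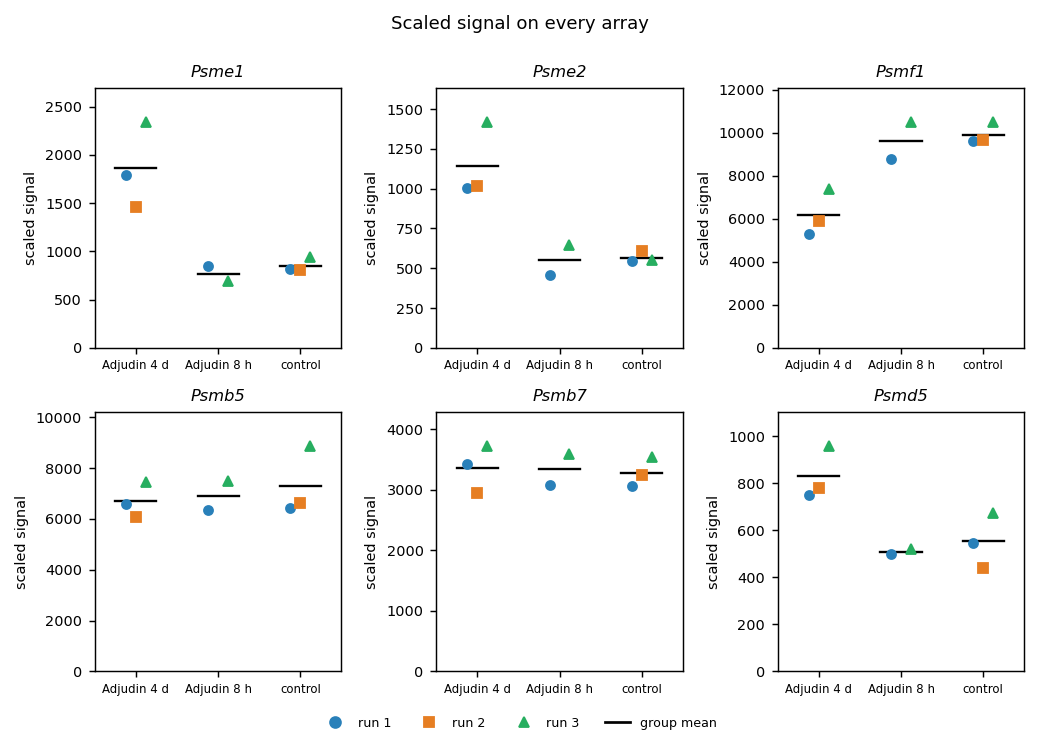
Scaled signal (linear axis from 0) of Psme1, Psme2, Psmf1, Psmb5, Psmb7 and Psmd5 on each array, with 4 d left of 8 h and 8 h left of control; a point is an array, shaped by run, and a line is the group mean. Psme1 and Psme2 lie above, and Psmf1 below, the control arrays on all 3 arrays at 4 d.

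The alpha ring of the core was described by 7 genes, with a median log2 change of 0.29 at 4 d. None was called without the block, and with it 4 were higher and 1 was lower. Psma1 had signals of 2052, 2504 and 2657 at 4 d, 1872 and 1922 at 8 h, and 1785, 1798 and 2008 in controls. Its arrays at 4 d did not overlap the controls, with a log2 difference of 0.36 (SE 0.13) and a limma adjusted p of 0.131. Psma6 had the lowest log2 difference of the ring, and its signals were 16064, 15549 and 22974 at 4 d, 21816 and 28571 at 8 h, and 21539, 20037 and 33445 in controls. Those ranges overlap, since the array of run 3 was the brightest of each group, and the log2 difference was -0.44 (SE 0.22, limma adjusted p 0.284). When the run was a block, Psma6 had an adjusted p of 0.000487, and without the 3 arrays of run 3, an alternative chosen after seeing the data, Psma6 was also called lower.

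The beta ring had a median log2 change of 0.03 at 4 d over 7 probe sets. None was called without the block, and 2 were higher with it. Psmb5, which carries the chymotrypsin-like activity, had signals of 6570, 6063 and 7433 at 4 d, 6340 and 7497 at 8 h, and 6419, 6620 and 8888 in controls (1371348_at). The groups overlap, and the log2 difference between 4 d and control was -0.12 (95% interval -0.46 to 0.23, limma adjusted p 0.734). Psmb7, which carries the trypsin-like activity, had 3427, 2941 and 3731 at 4 d, 3078 and 3596 at 8 h, and 3061, 3244 and 3537 in controls. For Psmb7 the groups overlap too, with a log2 difference of 0.03 (95% interval -0.26 to 0.33, limma adjusted p 0.927). The smallest p in the ring was that of Psmb3, a non-catalytic subunit, with 2198, 2202 and 2376 at 4 d, 1742 and 1874 at 8 h, and 1638, 1823 and 1863 in controls. The arrays of Psmb3 at 4 d did not overlap those of either other group, and the log2 difference from control was 0.34 (SE 0.11) with a limma adjusted p of 0.0971.

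The ATPases that unfold substrates, Psmc1 to Psmc6, had a median log2 change of 0.08 at 4 d over 8 probe sets, and none was called with or without the block. Psmc1 had signals of 3411, 3331 and 4075 at 4 d, 2651 and 3323 at 8 h, and 2561, 3142 and 3567 in controls. Its arrays at 4 d overlapped the controls but lay above both at 8 h. The log2 difference from control was 0.23 (SE 0.16, limma adjusted p 0.452). The representative probe sets of Psmc2, Psmc3, Psmc4 and Psmc5 had log2 differences of -0.05 to -0.00426 at 4 d. For Psmc6 the brightest probe set gave 0.17, and the others 0.31 and 0.42.

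The other 19S subunits had a median log2 change of 0.19 at 4 d over 16 probe sets. Again none was called without the block, and 4 were higher with it. Psmd4, a receptor for ubiquitin chains, had signals of 2786, 2801 and 3184 at 4 d, 2153 and 2523 at 8 h, and 2121, 2284 and 2672 in controls. Its arrays at 4 d lay above all others, with a log2 difference from control of 0.31 (SE 0.13, limma adjusted p 0.199). Psmd14, the enzyme that removes ubiquitin chains, had 1741, 1764 and 1621 at 4 d, 1457 and 1537 at 8 h, and 1383, 1377 and 1238 in controls by 1394082_at, where no group overlaps another. That probe set, which is not the brightest of Psmd14, gave a log2 difference of 0.35 between 4 d and control (limma adjusted p 0.0918). The brightest, 1383429_at, gave 0.37 with overlapping groups (limma adjusted p 0.268), and 1386073_at gave 0.25. For Psmd2 and Psmd8, further subunits of the cap, the differences from control were 0.13 and -0.03.

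Over the 30 genes of both particles, taking the brightest probe set of each, log2 differences between 4 d and control ran from -0.44 for Psma6 to 0.46 for Psma7, with a median of 0.14. Each of the 30 intervals lay within a 2-fold change either way, with the outermost bounds at -0.94 for Psma6 and 0.97 for Psma7. At an unadjusted p below 0.05, 8 of the 38 probe sets were higher in limma and 0 were lower (11 and 2 of the 55, where 14% and 8.77% of all probe sets were). The arrays at 4 d lay above every control for 8 of them and below every control for 0. For all 55 probe sets these non-overlapping counts were 11 higher (20%) and 1 lower (1.82%), against 17.5% and 11.8% of all tested probe sets. The interval of the log2 change lay within 2-fold for 46 of the 55 (83.6%), against 69.4% of all probe sets. On every array the typical member was brighter than the median probe set, and the part of brightness in these shares was not tested.

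**Figure D2:**
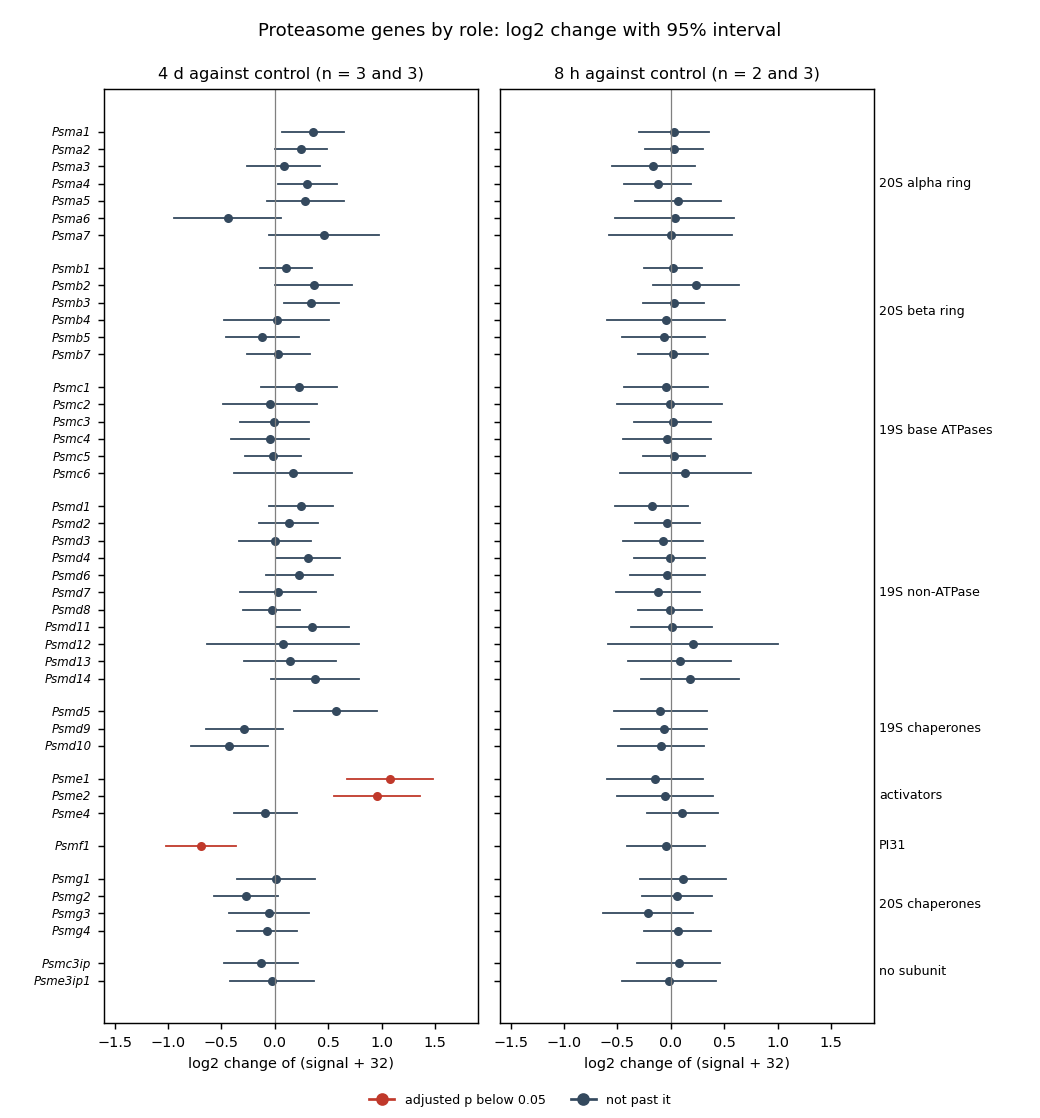
Log2 difference from control at 4 d (left panel) and 8 h (right panel) for the brightest probe set of each of the 43 genes, grouped by role; points are limma estimates, lines are 95% intervals, and red marks an adjusted p below 0.05. At 4 d Psme1 and Psme2 stand at the right and Psmf1 at the left, the subunits of both particles lie between -0.44 and 0.46, and no gene is red at 8 h.

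More of the smaller differences were called once the runs were compared within themselves. With the run as a block, 13 of the 55 probe sets were called higher at 4 d than in controls (23.6%) and 3 lower (5.45%), while 13.3% and 9.19% of all tested probe sets were. The members called higher with the block were Psma1, Psma4, Psma5, Psma7, Psmb2, Psmb3, Psmd4, Psmd5, Psmd11, both of Psmd14, Psme1 and Psme2, with log2 changes of 0.29 for Psma5 up to 1.08 for Psme1. Those called lower were Psma6, Psmd10 and Psmf1. Without the block the adjusted p of the 13 probe sets called only with it ran from 0.0734 to 0.341. Within the 3 runs the median log2 change of the 55 was 0.08, 0.08 and 0.10. In all 3 runs 22 of the 55 (40%) were higher at 4 d and 9 (16.4%) were lower, against 31.5% and 24.2% of all probe sets.

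**Figure D3:**
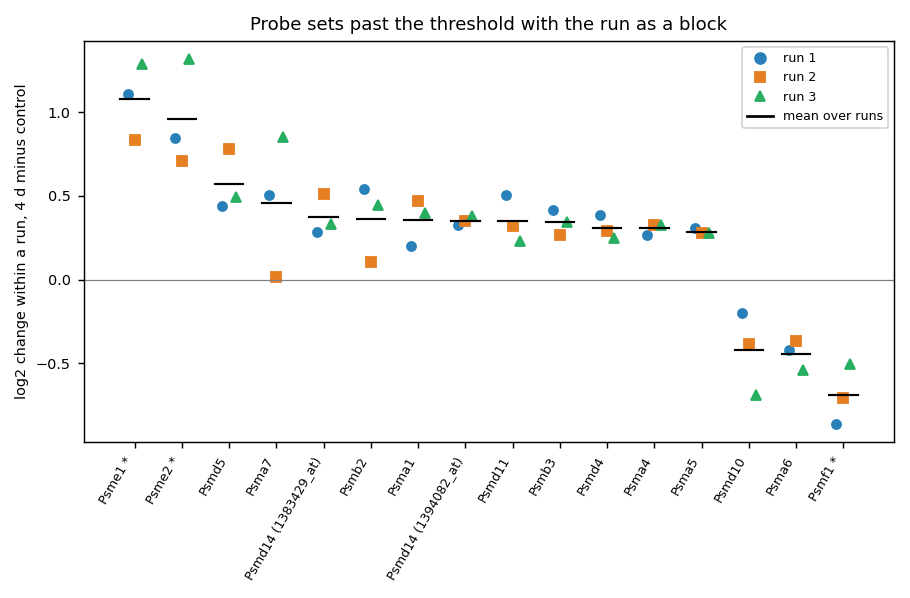
Log2 difference between 4 d and the control of the same run for the 16 probe sets called with the run as a block, 1 point for each of the 3 runs and a line for their mean; an asterisk marks the 3 called without the block too. The points of Psme1 and Psme2 lie above 0 and those of Psmf1 and Psma6 below 0 in every run.

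Among proteins that assemble the particles, Psmd5, a chaperone of the 19S base, had signals of 750.4, 782 and 961 at 4 d, 498 and 519 at 8 h, and 546, 442 and 674.5 in controls. Its arrays at 4 d lay above all others, with a log2 difference from control of 0.57 (SE 0.18). The limma adjusted p was 0.0734 (0.00854 when the run was a block); without control 3 it was 0.0331 at a log2 difference of 0.71. Psmd10, also known as gankyrin, had 1082, 1284 and 1143 at 4 d, 1430 and 1533 at 8 h, and 1248, 1685 and 1864 in controls. There the lowest control lay below the highest array at 4 d, and the log2 difference was -0.42 with a limma adjusted p of 0.143, and 0.0246 with the block. Psmd9, the other base chaperone, gave -0.29 and -0.32 in its 2 probe sets, neither of them called.

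The chaperones of the core, Psmg1 to Psmg4, had log2 differences between 4 d and control of -0.27 to 0.01. Psmg2 had the smallest p, with 1847, 1739 and 2159 at 4 d, 2320 and 2488 at 8 h, and 2080, 2289 and 2569 in controls. Its arrays at 4 d overlapped the controls but lay below both at 8 h, and the log2 difference from control was -0.27 (SE 0.13, limma adjusted p 0.269). Psmc3ip, the recombination cofactor, had 4046, 4995 and 3298 at 4 d, 4927 and 4432 at 8 h, and 4577, 4656 and 4100 in controls, with overlapping groups and a log2 difference of -0.13.

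Of the 8 genes with more than 1 member probe set, 4 had opposite signs at 4 d, namely Psmd7, Psmd11, Psme1 and Psme4. For Psmd7 the log2 differences from control were small, 0.03 and -0.04. For Psmd11 the brighter probe sets gave 0.35 and 0.34, and the dim 1380252_at gave -0.24 (SE 0.51). Among these 4, Psme1 had a probe set past the threshold without the block, and with the block so did Psmd11 (1374712_at).

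At 8 h none of the 55 probe sets was called in either direction in limma, with or without the run as a block, and 0 had an unadjusted p below 0.05. Over all tested probe sets 0.0657% were higher and 0% were lower at 8 h than in controls, 0.268% and 0.0101% with the block, and 2.45% and 1.46% at an unadjusted p below 0.05. The median log2 change of the members was -0.01, the same as over all probe sets, with 0.02 and -0.01 in the 2 runs that held 8 h arrays. The arrays at 8 h lay above every control for 2 members (3.64%), 1379850_at of Psmc6 (log2 0.43) and 1394082_at of Psmd14 (log2 0.17), and below every control for 0, against 7.32% and 7.62% of all probe sets. The 95% interval lay within 2-fold for 49 of the 55, against 76.6% of all, and the part of brightness was not tested here either. For the members called at 4 d, the log2 differences between 8 h and control were -0.14 for Psme1, -0.05 for Psme2 and -0.05 for Psmf1.

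Set against 8 h directly, testes at 4 d had higher Psme1 and Psme2 and lower Psmf1, the same 3 probe sets as against the controls. The 2 higher members compare with 3.58% of all probe sets and the 1 lower member with 2.47%. Psme1 was 2.33-fold higher at 4 d than at 8 h (log2 1.22, SE 0.20, limma adjusted p 0.00849). Psme2 was 2.01-fold higher (log2 1.01, SE 0.20, limma adjusted p 0.0187), and Psmf1 differed by -0.64 (SE 0.16, limma adjusted p 0.0478). The call of Psmf1 held in 8 of the 17 alternatives, that of Psme1 was lost without 8 h 2, and that of Psme2 without 8 h 1 and with equal medians (adjusted p 0.133 and 0.0681). With the run as a block 8 members were higher and 2 lower at 4 d than at 8 h, against 8.57% and 7.09% of all probe sets; Psma4, Psmd1, Psmd4, Psmd5, Psmd6 and Psmd11 joined the higher ones and Psma6 the lower. Without overlap between the times, 12 members (21.8%) were higher at 4 d and 6 (10.9%) lower, against 21.2% and 13.9% of all probe sets. This comparison and that with the controls share the arrays at 4 d.

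The genes around the proteasome in the ubiquitin pathway were taken from a list of 38 symbols, of which 29 were tested. At 4 d 4 of them rose and 1 fell in limma (7 and 3 with the block), with a median log2 change of 0.08. Of all tested probe sets 6.16% were higher and 3.73% lower, and 13.3% and 9.19% with the block. Both enzymes that activate ubiquitin were among those that rose. Uba1 had signals of 2312, 2309 and 2727 at 4 d, 1390 and 1414 at 8 h, and 1533, 1533 and 1426 in controls (log2 0.69, limma adjusted p 0.00608). Uba6 rose by a log2 of 1.14 with an adjusted p of 0.0482. Sqstm1, a receptor that carries ubiquitinated cargo to autophagy and the proteasome, rose by 0.47 (adjusted p 0.0365), and Nfe2l2, the transcription factor of the oxidative stress response, by 0.59 (adjusted p 0.0139).

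Ngly1, the glycanase that takes part in activating the proteasome regulator Nfe2l1, fell by 0.52 on the log2 scale at 4 d (limma adjusted p 0.0286). Nfe2l1 itself, which drives transcription of subunit genes when proteasome activity is low, had 429.1, 529.6 and 390.2 at 4 d, 504.4 and 476.4 at 8 h, and 504.8, 482.6 and 530.0 in controls. Those groups overlap (log2 -0.17, limma adjusted p 0.587). Of the 11 proteins of the list that bind the proteasome 0 passed without the block, and with it 2 were higher and 2 lower. Pomp, which helps to mature the core, had a log2 difference of 0.31 (limma adjusted p 0.131, and 0.0122 with the block). Adrm1, a ubiquitin receptor of the cap, had one of -0.49 (limma adjusted p 0.072, and 0.00906 with the block). The other 2 called with the block were Zfand5, which was higher, and Uchl5, a deubiquitinase, which was lower. At 8 h none of the 29 passed. Ubiquitin genes themselves were not analysed here, since they had no probe set with 1 symbol.

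The catalytic subunits of the immunoproteasome, which interferon-gamma induces together with PA28, are not among the 43 genes and were set beside them. Psmb9 had signals of 753.8, 688.8 and 660.7 at 4 d, 320.5 and 293.5 at 8 h, and 334.3, 283.9 and 400.2 in controls. Its arrays at 4 d lay above all others, and it rose by a log2 of 0.99 (limma adjusted p 0.00469). Psmb8 rose by 0.79 (adjusted p 0.00833) and Psmb10 by 0.78 (adjusted p 0.0170). Tap1, a peptide transporter of antigen presentation, had a log2 difference of 0.48 with an adjusted p of 0.242, and Tap2 was below the signal minimum. None of these was called at 8 h.

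**Figure D4:**
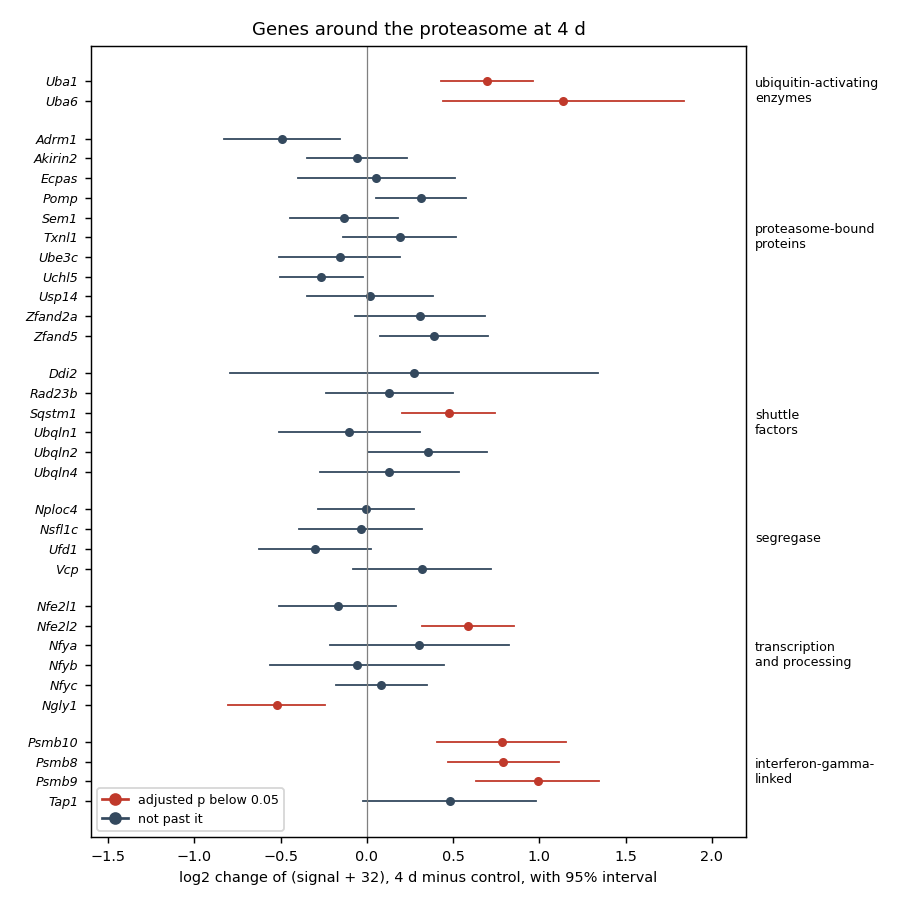
Log2 difference between 4 d and control for genes of the ubiquitin pathway and for genes linked to interferon-gamma, none of them a member; points are limma estimates and lines are 95% intervals. Psmb8, Psmb9, Psmb10, Uba1, Uba6, Sqstm1 and Nfe2l2 lie above 0 and passed, and Ngly1 lies below 0 and passed.

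Markers of the cell types in the testis also differed at 4 d, and in whole tissue fewer cells of a type and less RNA per cell cannot be told apart. Of 15 tested markers of macrophages and other leukocytes 9 were higher and 1 was lower at 4 d than in controls (11 and 1 with the block; median log2 1.21), and their summed signal was 15137 to 19219 at 4 d, 9721 to 10762 at 8 h and 10136 to 10953 in controls. Cd3e, which marks T cells, was below the signal minimum. Of 13 markers of elongating and elongated spermatids 5 were lower and 0 higher (13 and 0 with the run as a block), with summed signals of 203851 to 290645 at 4 d, 302228 to 395532 at 8 h and 290706 to 441219 in controls. For round spermatids 3 of 4 were lower (4 with the block), with 20001 to 21842 at 4 d, 32003 to 36645 at 8 h and 30227 to 36014 in controls. Of 10 Sertoli cell markers 3 were higher and 1 lower (4 and 2 with the block), with 49597 to 66696 at 4 d, 31206 to 36265 at 8 h and 26820 to 31912 in controls. Of 8 Leydig cell markers 2 were higher (5 with the block). Of 7 spermatocyte and 3 spermatogonium markers 0 were called without the block, and with it 0 and 1. At 8 h no marker was called without the block, and with it Ctsl, a protease of the Sertoli cell list, was higher (log2 0.56, limma adjusted p 0.0335). The part of these shifts in the differences of Psme1, Psme2 and Psmf1 was not tested.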

How the data were processed

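Whole testis RNA was hybridised to 8 Affymetrix Rat Genome 230 2.0 arrays. The deposited values are signal intensities per probe set on a linear scale; the submitters' processing notes name MAS5, and the series' design text names MAS 5.0 and GeneSpring 7.2. The array settings files were read only to find the 3 hybridisation runs. Each array was scaled to a 2% trimmed mean of 500, 57 control probe sets were removed, and the 19785 probe sets at 100 or above on 2 arrays or more entered limma 3.58.1 in R 4.3.3 as log2(signal + 32) (lmFit and eBayes, trend on, no block), two-sided, with Benjamini-Hochberg adjustment at 0.05. The fit was tried on simulated data with independent noise and no effect of the run, so that trial cannot show how the fit behaves with runs. Groups came from the sample titles, because the description names normal testis for all 8.

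Pairing was checked from deviations from group means: same-numbered 4 d and control arrays, which share a run, correlated at 0.353 to 0.507, and those of different numbers at -0.37 to 0.12, so these numbers pair the arrays through the run, while 8 h replicate 2 belongs to run 3. Of the probe sets, 20826 have 1 symbol, 436 several and 9780 none; all 57 gene identifiers matched RefSeq and 0 symbols were updated. A gene is represented by its brightest probe set. Per-array values are given for the called members of each role or else the one with the smallest p, for the catalytic subunits, Psme1, Psme2 and Psme4; other genes were named after their values were seen. The members, lists and tests were chosen with earlier results of these data known. Alternatives were the scaling, pseudocount, signal minimum, trend, run as a block and leaving out each array.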

Additional observations from a re-analysis of the deposited data

Results flagged for a closer look

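The difference between 4 d and 8 h was itself past the threshold in limma for 3 members. They are 5.45% of the 55, where 6.06% of all tested probe sets were called, so the count is near that share. Psme1 was higher at 4 d than at 8 h by a log2 of 1.22 and Psme2 by 1.01, while Psmf1 differed by -0.64. All 3 had log2 differences between 8 h and control of -0.14 to -0.05. Every array at 4 d lay on the same side of every array at 8 h for these genes. Only 2 arrays stand for 8 h, and the calls were lost without 8 h 2 for Psme1, and without 8 h 1 or with equal medians for Psme2. The call of Psmf1 was lost in 9 of the 17 alternatives, among them equal medians, no signal minimum and no trend.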

How the results depend on the processing

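The rises of Psme1 and Psme2 at 4 d against control passed under each of the 17 alternatives, and the fall of Psmf1 under 15. The count of members higher at 4 d than in controls, 2, became 4 with quantile normalization (Psmb1 and Psmd2 added) and 13 with the hybridisation run as a replicate block, which pairs the arrays; the count lower, 1, became 3 with the block and 2 without the 3 arrays of run 3, added after seeing the data. Leaving out 1 array gave 2 to 3 higher and 0 to 2 lower. Between 4 d and 8 h the counts of 2 and 1 became 1 and 0 with equal medians and 8 and 2 with the block; the lower count was 0 with no signal minimum and with no trend, and 2 without run 3. Leaving out 1 array gave 1 to 3 and 0 to 1 there. At 8 h against control the counts were 0 under every alternative. The causes were not tested, beyond the block and the smaller number of arrays. Equal medians moved the median of all probe sets at 4 d from 0.04 to -0.10 and that of the members to -0.06, with 781 probe sets called higher and 987 lower, against 1218 and 738 with trimmed means and 1133 and 984 with quantiles; changes are relative to the scaling. The sign turned for differences that were never called (adjusted p of 0.439 or more). At 4 d against control these were Psmb5 (0.0864) and Psme4 (0.10) with quantiles, Psmb7 with equal medians (-0.11), and, leaving out 1 array, Psmb7 (-0.0443 to 0.13), Psmb5 (-0.20 to 0.0320) and Psmc3ip (-0.28 to 0.0186). Between 4 d and 8 h they were Psmb5 with quantiles (0.16) and the block (0.0169), Psmb7 with equal medians (-0.12), and, leaving out 1 array, Psmb5 (-0.17 to 0.0717) and Psmb7 (-0.10 to 0.12). At 8 h against control they were Psmb7 with the block (-0.0272) and, without run 3, Psmb7 (-0.0333), Psmd5 (0.0177) and Psme1 (0.0699). For 8 h against control, leaving out 1 array of any group gave -0.0025 to 0.0812 for Psma1 and -0.0279 to 0.0796 for Psmb3. It gave -0.19 to 0.0806 for Psmb5, -0.0884 to 0.13 for Psmb7, -0.21 to 0.12 for Psmc1 and -0.0018 to 0.15 for Psmc3ip. The ranges were -0.12 to 0.10 for Psmd4, -0.24 to 0.0465 for Psmd5 and -0.29 to 0.0018 for Psme1. They were -0.28 to 0.18 for Psme2, -0.18 to 0.0811 for Psmf1 and -0.0134 to 0.14 for Psmg2. Where a group was left with 1 array, it is assumed to vary like the others. Probe sets near the signal minimum, such as 1394006_at of Psme1, are limited by dim signal.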
